A study of Mus musculus with 8 samples.

Results

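The cyclic nucleotide phosphodiesterases (PDEs) are the enzymes that break down cAMP and cGMP. The messages of 9 genes of this family, Pde1a, Pde1b, Pde1c, Pde4a, Pde4b, Pde4d, Pde7b, Pde8a and Pde10a, were followed in the olfactory mucosa of mice that lost Lhx2 from part of their olfactory sensory neurons (OSNs). They are 9 of 21 genes on the array that encode a catalytic PDE subunit, and of 19928 genes tested. They were listed because Pde1c fell and Pde1b rose between the genotypes on these same arrays. The differences of the 9 genes are therefore given as a description, with standard errors (SE), confidence intervals and no p-values. For Pde1c and Pde1b, the intervals and the adjusted-p calls below rest on the values that chose them. They are no independent test of these genes.

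Total RNA came from mice at postnatal day 3 on a mixed 129 x C57BL/6J background, with 1 array per mouse. The mutants were 4 mice of genotype 123Cre:Lhx2(fl/fl), called cKO. The 4 controls were littermates with a single floxed Lhx2 allele, 2 of genotype Lhx2(fl/+) and 2 of genotype 123Cre:Lhx2(fl/+), so every animal carried at least 1 floxed allele. The 123Cre transgene starts Cre recombinase in immature OSNs. In situ hybridization in the study, on mice older than these, showed the deletion to be incomplete. Replicate numbers only name the arrays. Sample titles begin with A (cKO mice 1, 3 and 4, controls 3 and 4) or B (cKO mouse 2, controls 1 and 2), a letter whose meaning is not stated.

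In OSNs an odorant receptor activates the G protein subunit encoded by Gnal, which stimulates adenylyl cyclase 3 in the cilia. The cAMP so formed opens a cyclic nucleotide-gated channel, calcium enters, and PDEs return cAMP to rest. PDE1 enzymes are stimulated by calcium-bound calmodulin, PDE4, PDE7 and PDE8 enzymes are specific for cAMP, and PDE10A accepts both cyclic nucleotides. PDE1C is known as the PDE of OSN cilia, and PDE4A is found in OSN cell bodies, dendrites and axons rather than in cilia.

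The array pools probes over all exons of a gene and cannot tell which start site was in use. For orientation, the 250 bases before the most upstream RefSeq start of Pde1c and Pde1b, the genes for which the family was examined, are shown. Those of Pde7b, the only member with the longer homeodomain motif TAATTA, are shown as well. RefSeq on build GRCm38.p6 supplied them, each is written 5′ to 3′ on the strand of its gene, and capitals mark the homeodomain core TAAT on either strand (so also ATTA). They lie at chr6:56369635-56369884 on the minus strand (Pde1c), chr15:103502784-103503033 on the plus strand (Pde1b) and chr10:20548329-20548578 on the minus strand (Pde7b).
Pde1c: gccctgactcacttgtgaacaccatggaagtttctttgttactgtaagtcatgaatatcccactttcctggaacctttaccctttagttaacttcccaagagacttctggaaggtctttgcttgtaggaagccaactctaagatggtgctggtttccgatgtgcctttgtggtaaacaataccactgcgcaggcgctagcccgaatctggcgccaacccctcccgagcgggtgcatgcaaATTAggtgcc
Pde1b: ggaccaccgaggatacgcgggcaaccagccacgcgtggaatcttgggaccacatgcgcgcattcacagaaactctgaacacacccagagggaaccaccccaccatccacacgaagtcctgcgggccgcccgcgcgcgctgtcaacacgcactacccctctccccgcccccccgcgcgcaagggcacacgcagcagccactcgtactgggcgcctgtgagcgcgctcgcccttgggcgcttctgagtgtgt
Pde7b: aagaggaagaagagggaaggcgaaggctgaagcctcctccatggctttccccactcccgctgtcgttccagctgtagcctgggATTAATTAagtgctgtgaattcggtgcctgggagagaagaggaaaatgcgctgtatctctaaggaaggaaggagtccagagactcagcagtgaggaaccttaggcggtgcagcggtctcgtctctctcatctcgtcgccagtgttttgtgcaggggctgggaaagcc

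The 9 genes have 22 such windows in the RefSeq table. Pde7b alone of the 9 held the longer homeodomain motif TAATTA, which overlaps the core and begins at position -165 from its start, against 5.65% of 27025 genes with at least 1 such window. The core TAAT occurred in 14 of the 22 windows, against 54.9% of all 32851 windows. The Pde1b window shown holds no core, but those before its later starts do, at -184 and -157 and at -158. The windows shown therefore do not set Pde1b apart from the members that fell. The Olf1/Ebf1 motif, TCCC and GGGA with NN between them (0.779% of all windows), and the cAMP response element TGACGTCA (1.55% of all windows) matched 0 of the 22, both strands searched. These matches describe letters and not binding.

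Array values were log2 signals, so a difference of 1 is a doubling. The array medians lay between 8.82 and 8.89, and the median difference of all genes was 0.03. Lhx2 read 13.14, 13.09, 13.20 and 13.13 in controls 1 to 4 and 13.03, 12.55, 13.01 and 13.02 in cKO mice 1 to 4, a difference of -0.24 (SE 0.11, adjusted p = 0.337 by limma) that was -0.12 without cKO mouse 2. Only the first exons are floxed, and where the array's Lhx2 probes lie relative to them is not known here. Lhx2 is therefore only a partial check of the genotypes, and the part of probe position in its difference was not tested. Markers of mature OSNs were lower in the mutants. The mean of 20 such genes, none of them a PDE, was 11.94 to 12.07 in controls and 10.89 to 11.51 in cKO mice, a difference of -0.70, with cKO mouse 2 the lowest. These genes were picked by hand, and their own differences ran from -1.81 to -0.08 with a median of -0.59. Among them, Adcy3, Cnga2, Cnga4, Cngb1, Gnal, Gng13, Ric8b and Ano2 also stand in the lists of cyclic nucleotide and odor transduction genes examined below. The marker mean and those lists are therefore not independent. The far longer list of mature OSN mRNAs that the study normalized to was not used here, and the size of the decrease depends on the list. In whole mucosa, fewer cells of a type and less mRNA per cell cannot be told apart.

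Among the PDE1 genes, Pde1c and Pde1b lay on opposite sides of their controls while Pde1a did not separate. Pde1c read 11.24, 11.06, 11.33 and 11.24 in controls 1 to 4 and 10.75, 10.59, 10.69 and 10.63 in cKO mice 1 to 4. All 4 mutants were below all 4 controls, and the lowest control stood 0.31 above the highest mutant. The group means were 11.22 ± 0.11 and 10.66 ± 0.07 (SD, n = 4 each), a difference of -0.55 (SE 0.07, 95% interval -0.70 to -0.40), a change of -31.8%. Within the title letters the difference was -0.60 (A) and -0.56 (B).

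Pde1b, the other well-known calcium-calmodulin PDE of neurons, read 8.80, 8.85, 8.99 and 9.01 in controls 1 to 4. In cKO mice 1 to 4 it read 9.44, 9.83, 9.74 and 9.35. All mutants were above all controls, with mice 2 and 3 the highest. The means were 8.91 ± 0.10 and 9.59 ± 0.23 (SD, n = 4 each), a difference of 0.68 (SE 0.11, 95% interval 0.43 to 0.93), or 60.3% higher. Within the title letters it was 0.51 (A) and 1.004 (B), the latter resting on cKO mouse 2 alone. Without that mouse the difference of Pde1b was 0.60 and that of Pde1c -0.53.

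Pde1a, the third gene of this subfamily, read 8.28, 8.55, 8.36 and 8.56 in controls and 8.37, 8.29, 8.49 and 8.53 in cKO mice. The groups overlapped fully. The difference was -0.02 (SE 0.08), with a 95% confidence interval of -0.20 to 0.17.

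**Figure D1:**
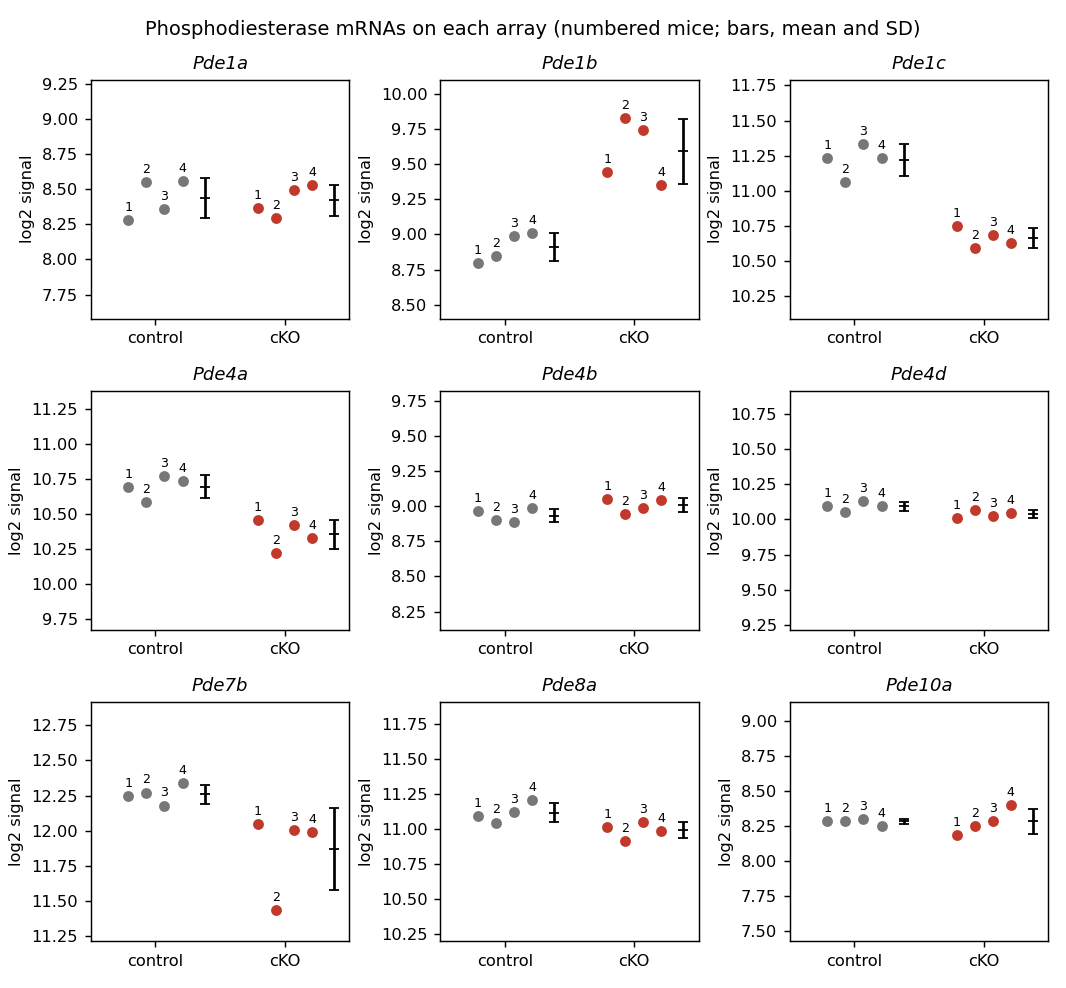
Log2 signal of the 9 phosphodiesterase mRNAs in 4 controls (grey) and 4 cKO mice (red), with the mouse number at each point, bars for mean and SD, and the same height of axis in every panel. All cKO points lie below all control points for Pde1c, Pde4a and Pde7b and above them for Pde1b, and the groups overlap in the other 5 panels.

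The cAMP-specific PDE4 genes did not move together. Pde4a, the other PDE known from OSNs, read 10.69, 10.58, 10.77 and 10.73 in controls 1 to 4 and 10.46, 10.22, 10.42 and 10.33 in cKO mice 1 to 4. All mutants were below all controls, with mouse 2 the lowest. The means were 10.69 ± 0.08 and 10.36 ± 0.10 (SD, n = 4 each), a difference of -0.34 (SE 0.07, 95% interval -0.49 to -0.19), a change of -20.9%.

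Pde4b, which is prominent in immune cells as well as in brain, read 8.89 to 8.98 in controls and 8.95 to 9.05 in cKO mice. These ranges overlapped, with a difference of 0.07 (SE 0.05, 95% interval -0.03 to 0.18). Pde4d, which is expressed in many tissues, read 10.05 to 10.13 in controls and 10.01 to 10.07 in cKO mice, and its difference was -0.06 (SE 0.04, 95% interval -0.15 to 0.03). For both, the interval leaves out a change as large as that of Pde4a. Pde4d was the only member with more than 1 transcript cluster. Its dimmer clusters, which were not used, differed by 0.13 and -0.24, so that the 3 clusters disagreed in sign.

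Of the remaining cAMP-specific genes, Pde7b was lower and Pde8a slightly lower. Pde7b read 12.25, 12.27, 12.18 and 12.34 in controls 1 to 4 and 12.05, 11.44, 12.01 and 11.99 in cKO mice 1 to 4. The groups did not overlap, but mouse 2 lay far below the other mutants. The means were 12.26 ± 0.07 and 11.87 ± 0.29 (SD, n = 4 each), a difference of -0.39 (SE 0.13, 95% interval -0.68 to -0.10), a change of -23.6%. It was -0.24 without mouse 2, and -0.24 and -0.82 within title letters A and B.

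Pde8a, a high-affinity cAMP enzyme, read 11.05 to 11.20 in controls and 10.91 to 11.05 in cKO mice, and the highest mutant met the lowest control. The difference was -0.12 (SE 0.05, 95% interval -0.24 to -0.01), a change of -8.22%. Pde10a, best known from striatal neurons, read 8.25 to 8.30 in controls and 8.19 to 8.40 in cKO mice. Its difference was below 0.01 in size (SE 0.05), with a 95% interval of -0.12 to 0.12.

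Of the 9 members, 1 passed an adjusted p under 0.01 by limma in each direction, Pde1c lower and Pde1b higher, which is the observation that chose them. With 1 array left out, Pde1c passed in 3 of 8 fits (without cKO mouse 1, cKO mouse 2 or control 2) and Pde1b in 1 (without cKO mouse 2). These fits reuse the values behind that choice, so they describe dependence on single arrays only. With the title letter as a fixed block, Pde1b no longer passed, while Pde4a passed as lower beside Pde1c. Of all genes, 2.07% passed as lower and 0.0602% as higher (2.13% in all). Groups without overlap were found for 3 members below and 1 above the controls, against 8.43% and 3.18% of all genes. The median difference of the 9 was -0.06, beside 0.03 for all genes.

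The other 12 catalytic PDE genes had no part in that choice. Of these 12, limma called 0 at an adjusted p under 0.01, while 3 had an unadjusted p under 0.05, all of them higher. Of all genes, 5.13% were higher and 9.87% lower at that limit. The study's own kind of test, run here on the same values without the study's normalization and called the methods' t-test, gave 0 after adjustment. The study normalized to mature OSN mRNAs first and reported many odorant receptor mRNAs as lower. Its correction was a stepwise false discovery rate procedure, whereas Benjamini-Hochberg over all genes was used here. Counts by the test as run here therefore do not repeat its analysis. Of the 12 differences, 9 were above 0, as were 62.3% of all genes. Pde2a, a PDE stimulated by cGMP, came closest. It read 9.58, 9.81, 9.48 and 9.48 in controls 1 to 4 and 10.43, 10.08, 10.09 and 10.002 in cKO mice 1 to 4. Every mutant was above every control. The difference was 0.57 (SE 0.11, adjusted p = 0.0181 by limma), or 48.0% higher, and lay between 0.47 and 0.64 when 1 array at a time was left out. Within title letters A and B it was 0.69 and 0.39.

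Pde2a is known as a marker of the guanylyl cyclase D (GC-D) OSNs, a small class that uses cGMP. Other markers of these cells differed by less. Gucy2d, which encodes GC-D itself, differed by 0.01 (SE 0.07, adjusted p = 0.977 by limma) and Cnga3, its cGMP-gated channel subunit, by 0.04 (SE 0.08, adjusted p = 0.874). Car2, a carbonic anhydrase, differed by -0.14 (SE 0.06, adjusted p = 0.351). Of 6 markers on this list, limma called 0, the methods' t-test called 0, and 0 had an unadjusted p under 0.05. Their mean was 8.14 to 8.37 in controls and 8.21 to 8.30 in cKO mice. In controls Gucy2d (7.90) and Cnga3 (6.95) read lower than Pde2a (9.59). Background signal makes changes of dim genes look smaller. The part of GC-D cells in the Pde2a difference was not tested.

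Next came Pde7a, the paralog of Pde7b, which read 10.05 to 10.27 in controls and 10.29 to 10.41 in cKO mice. Its difference was 0.18 (SE 0.06, adjusted p = 0.133 by limma), in the direction opposite to that of Pde7b. Pde4c differed by 0.28 (SE 0.12, adjusted p = 0.333). It read 8.31 in cKO mouse 2 against 7.70 to 7.89 in the other mutants, and without that mouse the difference was 0.15. The other 9 genes differed by -0.05 (Pde5a, a cGMP-specific enzyme) to 0.11 (Pde6c, the PDE of cone photoreceptors). The phototransduction genes Pde6a, Pde6b and Pde6c read between 5.83 and 6.75 on every array.

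**Figure D2:**
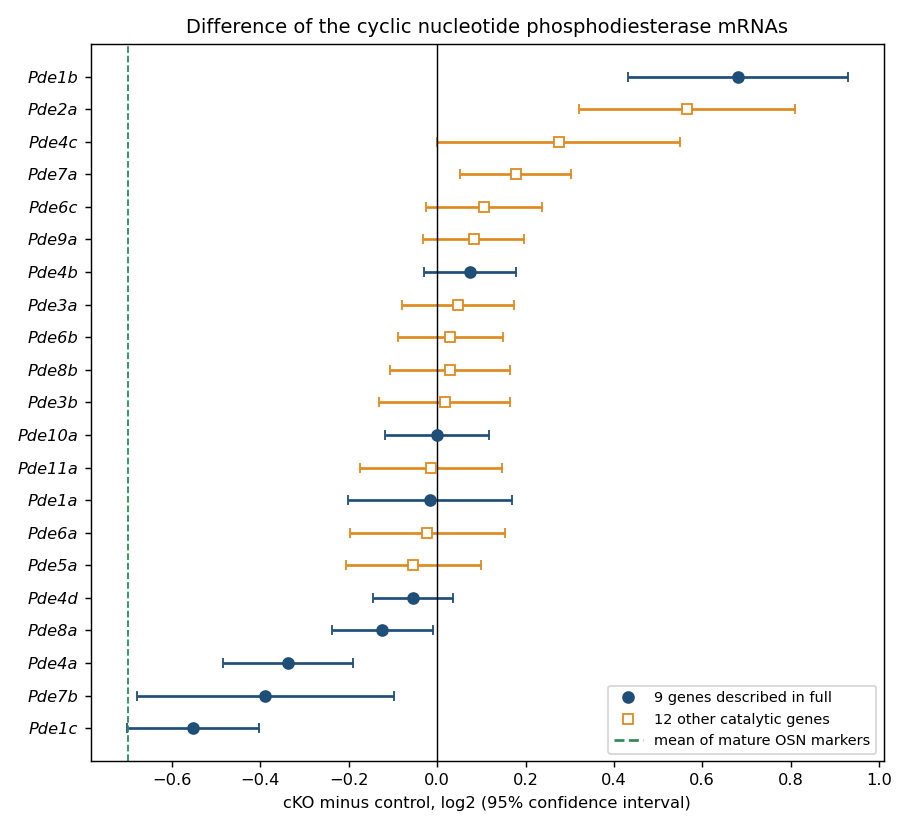
The cKO minus control log2 difference of all 21 catalytic phosphodiesterase genes with its 95% confidence interval from limma (n = 4 per group), ordered by size, with filled circles for the 9 genes described in full and open squares for the other 12. Pde1b (0.68) and Pde2a (0.57) lie highest and Pde4a, Pde7b and Pde1c (-0.55) lowest, the last still to the right of the dashed line for the mature OSN marker mean (-0.70).

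The members were then set against the mean of the 20 mature OSN markers on the same array, a ratio that shows only unequal change and shifts with the markers chosen. The Pde1c minus marker value was -0.80 ± 0.15 in controls and -0.65 ± 0.24 in cKO mice (SD, n = 4 each). These groups overlapped, and 12 of the 20 markers had a more negative difference than Pde1c. For Pde4a this held for 18 of the 20 markers, and for Pde7b for 16. The ratios of Pde4a (-1.32 ± 0.11 in controls, -0.96 ± 0.20 in cKO mice) and Pde7b (0.25 ± 0.05 and 0.56 ± 0.03) were higher in all mutants than in all controls. The same held for Pde1a, Pde1b, Pde4b, Pde4d, Pde8a and Pde10a, so for every member but Pde1c. The subtracted marker mean itself differed by -0.70, which lifts this ratio for most genes. After the subtraction, limma called 18343 of 19928 genes higher.

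Among the mutants, the PDE genes followed the markers to unequal extents. In cKO mouse 2 the mature OSN marker mean was 0.57 below the mean of the other mutants on the log2 scale (-0.57). Pde7b differed there by -0.58, close to the markers. Pde4a differed by -0.18 and Pde1c by -0.10, whereas Pde1b stood 0.32 higher in that mouse. By its sex-linked mRNAs mouse 2 was female, unlike the other mutants, and it alone of them carries the title letter B. The part of either in the values of that mouse was not tested. With sex as a fixed block, the cKO minus control difference was 0.71 for Pde1b and -0.56 for Pde1c. With the title letter as a fixed block it was 0.69 for Pde1b and -0.58 for Pde1c.

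**Figure D3:**
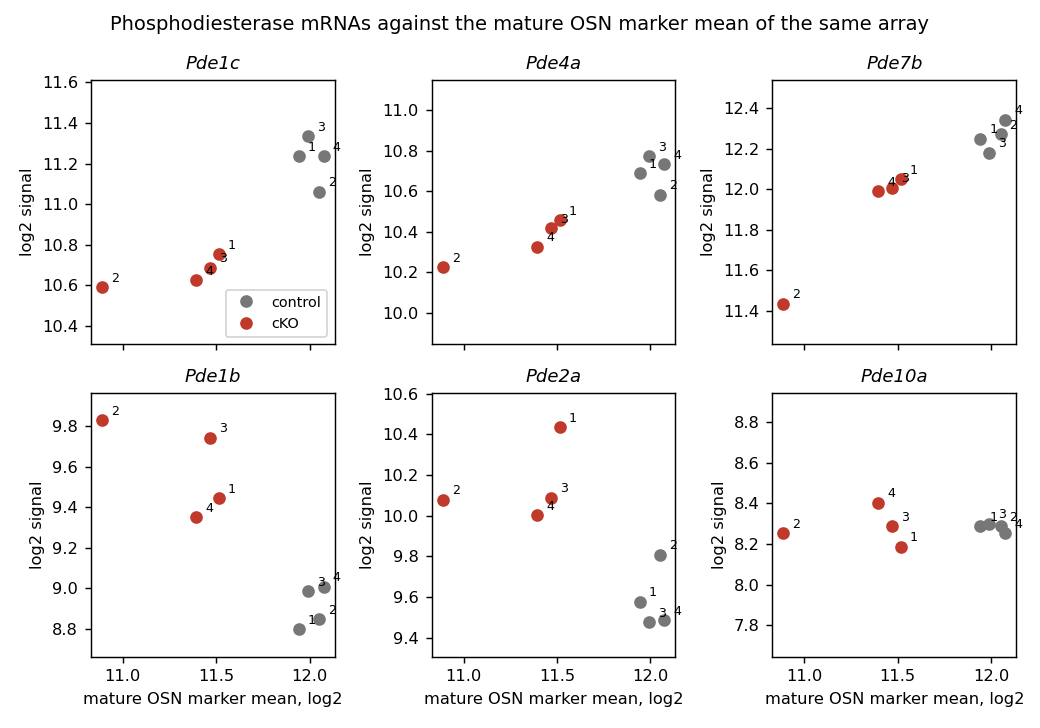
Log2 signal of 6 phosphodiesterase mRNAs (vertical, the same height of axis in every panel) against the mean log2 signal of 20 mature OSN markers on the same array (horizontal), with numbered points for controls (grey) and cKO mice (red). In cKO mouse 2, at the far left, Pde7b drops with the markers while Pde1c stays within 0.16 of every other mutant, and Pde10a does not follow them.

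The control genotypes gave a comparison that the choice of genes did not use, that of the Cre transgene with 1 floxed allele against 1 floxed allele alone (n = 2 each, in a limma model of all 3 genotypes). Among controls the genotype coincides with the title letter, so genotype and letter cannot be told apart. Of all genes, 0% were called (0 genes by limma, 7.78% at an unadjusted p under 0.05, and 0 when the controls were fitted alone). For the 9 members the Cre carriers differed by -0.01 (Pde10a) to 0.17 (Pde1b), and 0 had an unadjusted p under 0.05. Pde1c differed by 0.14 (SE 0.09, adjusted p = 0.712 by limma, 95% interval -0.06 to 0.33) and Pde1b by 0.17 (SE 0.15, adjusted p = 0.807, 95% interval -0.18 to 0.53). With 2 mice per genotype these intervals are wide.

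Genes that make, bind or act with cyclic nucleotides were examined beside the PDEs, over lists written with earlier results of these data known. Of 9 measured G proteins and regulators of odor transduction, limma called 0 and the methods' t-test called 0. The median difference of these 9 was -0.35. At an unadjusted p under 0.05, 5 were lower and 1 higher, beside 9.87% and 5.13% of all genes. At an adjusted p under 0.01 the shares of all genes were 2.07% lower and 0.0602% higher. The lowest p-values belonged to Ano2, the calcium-gated chloride channel (-0.65, adjusted p = 0.0161 by limma), Slc24a4, a sodium-calcium exchanger (-0.35, adjusted p = 0.0228), Gnal (-0.59, adjusted p = 0.0263) and Ric8b, an exchange factor for that G protein (-0.60, adjusted p = 0.0271).

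Of 21 cyclases measured, Adcy3, the adenylyl cyclase of odor transduction, fell (-0.86, SE 0.09, adjusted p = 0.00267 by limma). None of the others passed, where 2.07% of all genes passed as lower and 0.0602% as higher. Of the 21 differences, 17 were above 0 (62.3% of all genes), with a median of 0.06. Next by p were Gucy1a2 (0.45, SE 0.12, adjusted p = 0.0663), a subunit of soluble guanylyl cyclase, Adcy1 (0.30, SE 0.09, adjusted p = 0.103), a cyclase stimulated by calmodulin, and Gucy1b2 (0.63, SE 0.19, adjusted p = 0.116), another soluble cyclase subunit. Adcy3 passed in 2 of the 8 fits with 1 array left out, those without cKO mouse 1 or 2.

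Of 24 proteins that bind or answer to cyclic nucleotides, 1 fell and 0 rose, beside 2.07% and 0.0602% of all genes. The median of the 24 was -0.02. Cnga4, which encodes a modulatory subunit of the cAMP-gated channel of OSN cilia, fell by 1.60 on the log2 scale (SE 0.20, adjusted p = 0.00434 by limma). Its partner subunits Cnga2 (-0.62, adjusted p = 0.0133) and Cngb1 (-0.87, adjusted p = 0.0210) missed the threshold, as did the pacemaker channel gene Hcn4 (-0.31, adjusted p = 0.0886). Without cKO mouse 2 the difference of Cnga4 was -1.36, and it passed in 2 of the 8 fits with 1 array left out, those without cKO mouse 1 or 2.

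PDE1 enzymes need calmodulin, so 18 genes of calmodulin and its targets were included. Camk2d, a calcium-calmodulin kinase, fell (-0.36, SE 0.05, adjusted p = 0.00506 by limma), none rose, and the median was -0.06. The shares of all genes were 2.07% lower and 0.0602% higher. Camk2d passed in 2 of the 8 fits with 1 array left out, those without cKO mouse 2 or control 2. Nrgn, a calmodulin-binding protein of neurons, stood at 0.36 (SE 0.09, adjusted p = 0.0502), the calcineurin subunit gene Ppp3cc at -0.16 (SE 0.04, adjusted p = 0.0603) and the kinase gene Camkk2 at -0.15 (SE 0.04, adjusted p = 0.0937). Calm2 (-0.08, adjusted p = 0.600) and Calm3 (-0.07, adjusted p = 0.461), which encode calmodulin itself, are given outside the rule for named genes.

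Of 19 PDE subunits and partner proteins, limma called 0 and the methods' t-test called 0. At an unadjusted p under 0.05, 2 were lower and 2 higher, beside 9.87% and 5.13% of all genes. Arrb1, a β-arrestin that can bring PDE4 to receptors, differed by 0.24 (SE 0.05, adjusted p = 0.0230), Pde6d, a prenyl-binding protein without PDE activity of its own, by -0.18 (SE 0.04, adjusted p = 0.0486), and Akap6, a scaffold for protein kinase A and PDE4, by -0.39 (SE 0.10, adjusted p = 0.0674). Prune1 differed by 0.20 (SE 0.09, adjusted p = 0.330).

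**Figure D4:**
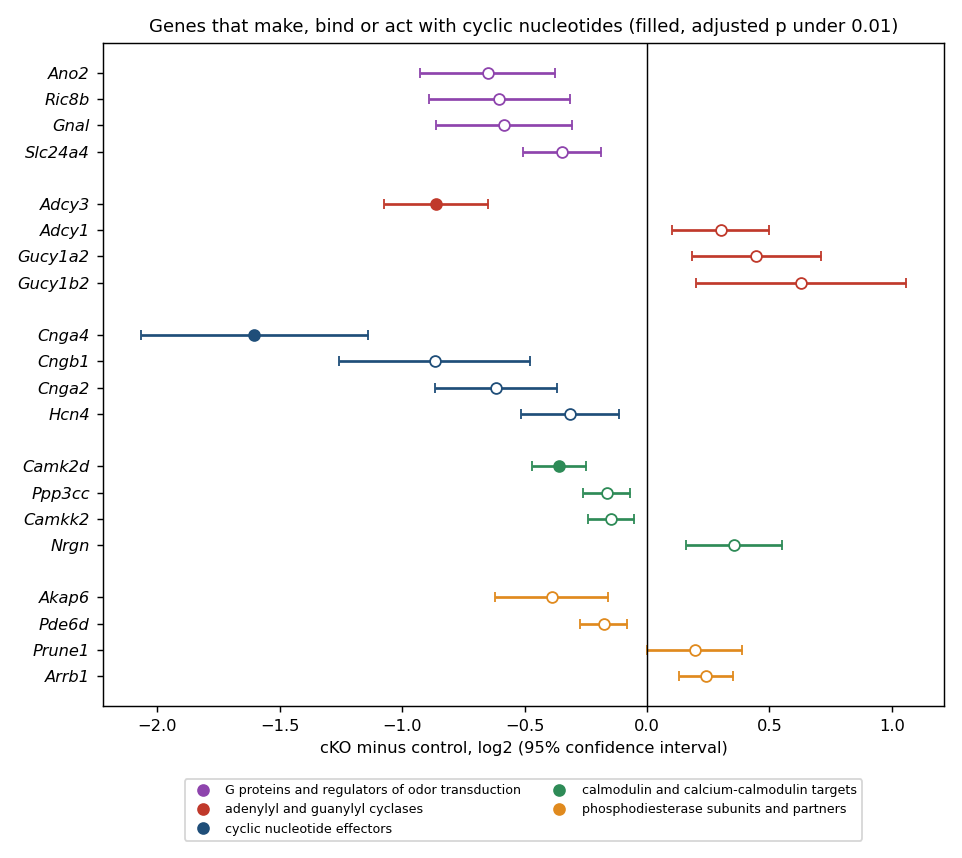
The cKO minus control log2 difference with its 95% confidence interval from limma (n = 4 per group) for the 4 genes with the smallest p in each of 5 lists, coloured by list and filled where the adjusted p was under 0.01. Adcy3, Cnga4 and Camk2d are filled and lie below 0, as do all genes shown from the effector and odor transduction lists, while 3 of the 4 cyclases lie above 0.

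Other cell types of the mucosa were read from marker lists. Apart from mature OSNs, where 5 of 20 markers fell (Omp, Adcy3, Cnga4, Faim2 and Slc17a6), and immature OSNs, where 1 of 15 fell (Stmn4, -0.30), limma called 0 markers and so did the methods' t-test. Below an unadjusted p of 0.05 by limma, mature OSNs had 18 of 20 lower, and immature OSNs 4 lower and 1 higher of 15. OSN progenitors had 1 lower and 4 higher of 8, and dividing cells 2 higher of 7. Microvillous cells had 1 lower and 1 higher of 9, respiratory ciliated cells 2 lower of 6, and the other 12 lists 0. Of all genes, 9.87% were lower and 5.13% higher at that limit. All 5 mature markers that fell, and Stmn4, passed in 2 of the 8 fits with 1 array left out, those without cKO mouse 1 or 2. Macrophages can express Pde1b and Pde4b. The mean log2 signal of their 9 measured markers was 9.08 to 9.34 in controls and 9.23 to 9.32 in cKO mice. Of these markers, 0 had an unadjusted p under 0.05 by limma. The part of any of these cells in the PDE values was not tested.

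For each of the leading PDE genes, the genes of nearest pattern were those whose values, taken relative to their own control mean, differed least over the 8 arrays by root mean square. For Pde1c they were Olfr33 (distance 0.053), Olfr1076 (0.058), Cnppd1 (0.059), D430042O09Rik (0.066) and Togaram2 (0.070), against a median of 0.43 over all genes. Their differences ran from -0.54 to -0.48. Olfr33 and Olfr1076 encode odorant receptors. Receptors are frequent among lowered genes. Of the 412 genes called lower, 103 encode no odorant, trace amine-associated or vomeronasal receptor.

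For Pde1b they were Clcf1 (0.12), a cytokine of the interleukin-6 family, Dusp26 (0.13), a phosphatase, Tmem255b (0.14), S100z (0.16), a calcium-binding protein, and Bean1 (0.16), against a median of 0.50. Their differences ran from 0.51 to 0.73. The values of Clcf1 in cKO mice 1 to 4 were 0.48, 0.97, 0.66 and 0.38 above its control mean, with the same mouse highest and the same mouse lowest as for Pde1b. These are likenesses in level over 8 arrays and were chosen by that measure.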

How the data were processed

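Olfactory mucosa RNA from 8 mice was measured on Affymetrix Mouse Gene 1.0 ST arrays. The authors deposited 1 log2 value per array and transcript cluster from Affymetrix Expression Console, per the submitters' processing notes. Its version, summarization, normalization between arrays and genome build were not given in the sources used here. Background signal makes changes of dim genes look smaller, and the number of arrays limits the precision (median SE 0.07).

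Of 28312 clusters, 21759 had 1 gene symbol in the platform annotation, 1605 several and 4948 none. Of those with 1 symbol, 21668 matched RefSeq (GRCm38.p6), and 0 symbols changed. The cluster with the highest mean was kept for each gene, which left 19928 genes. No PDE shared a cluster with another gene.

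Values were compared with limma 3.58.1 in R 4.3.3 (lmFit, eBayes, two-sided, Benjamini-Hochberg over all genes, adjusted p under 0.01), tested first on simulated data. The members and the gene lists were chosen with earlier results of these data known. Genes named are the PDEs, Lhx2, up to 4 of smallest p plus any that passed in each pathway list, markers that passed, and the 5 nearest patterns of Pde1c and of Pde1b. Any other is marked or named beside its list. The alternatives are given after the report.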

Additional observations from a re-analysis of the deposited data

Results flagged for a closer look

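In groups of 4 arrays, a value was singled out when its distance to the nearest other array took up more of the group's range than Dixon's critical value allows. This was checked in 162 groups, where chance alone gives about 1 in 20, and 10 stood out, 9 of them cKO mouse 2. Pde7b read 11.44 in that mouse, against 11.99 to 12.05 in the other mutants. Lhx2, the targeted gene, read 12.55 there (13.01 to 13.03 in the others). Omp, the marker protein of mature OSNs, read 11.997 (12.59 to 12.68), and Cnga4, of the olfactory channel, 8.76 (9.65 to 9.81). Gnal read 11.92 (12.47 to 12.49) and Ric8b, its exchange factor, 11.65 (12.22 to 12.24). Akap6, a kinase anchoring protein, read 9.94 (10.34 to 10.40). The same mouse was lowest in the means of the cyclic nucleotide effectors (9.18, against 9.26 to 9.27) and of the odor transduction regulators (11.24, against 11.52 to 11.57). The other value was Olfr33 in control 2, 8.96 against 9.14 to 9.17 in the other controls. Pde1c, Pde4a and Pde1b had no such array in either group.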

How the results depend on the processing

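The sizes for Pde1c and Pde1b kept their direction under all alternatives except subtraction of the mature OSN marker mean from every gene, which turned Pde1c to 0.15 and raised Pde1b to 1.38. That subtraction rests on the -0.70 of 20 genes picked by hand, and 8 of them had a less negative difference than Pde1c, so its sign there depends on the list. The same -0.70 comes off the difference of every gene, so counts and signs after the subtraction carry that shift. Left out 1 array at a time, Pde1c lay between -0.60 and -0.51 and Pde1b between 0.60 and 0.76. At an adjusted p under 0.01, Pde1c passed in 3 of these 8 fits and Pde1b in 1. These fits share the values that chose both genes and are no independent test. Of the 21 PDE genes, 1 was lower and 1 higher as reported. These counts were 0 and 0 by the methods' t test after adjustment and with either control genotype alone, 2 and 2 by its unadjusted p and at an adjusted p under 0.05, 2 (Pde1c and Pde4a) and 0 with the title letter as fixed block, 0 and 18 after the marker subtraction, and between 0 and 1 each with 1 array left out.

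Over all genes, 412 were lower and 12 higher. The counts were 0 and 1 by the methods' t test after adjustment, run without the study's normalization and so no repeat of the study's result. They were 1123 and 236 by its unadjusted p, 1031 and 73 at an adjusted p under 0.05 by limma, and 0 and 0 with either control genotype alone. After the marker subtraction they were 266 and 18343. The same -0.70 came off every difference, so the 18343 show that shift and are no count of single genes that rose. With 1 array left out and no subtraction, the counts ranged from 30 to 657 lower and from 0 to 19 higher. The highest counts came without cKO mouse 2 and the lowest count of lower genes without control 1. The marker subtraction turned the sign of 29 of the 34 named genes with a difference below 0, all but Adcy3, Cnga4, Cngb1, Omp and Faim2. A sign turned wherever the difference was less negative than -0.70, so the turns show the size of the shift and nothing further about these genes. Among the PDE genes, the signs that turned were those of Pde1c, Pde4a (0.36), Pde7b (0.31), Pde8a (0.58), Pde4d (0.64), Pde1a (0.68), Pde10a (0.70), Pde5a (0.65), Pde6a (0.68) and Pde11a (0.68). Others included Pde6d (0.52), Camk2d (0.34), Ppp3cc (0.53), Camkk2 (0.55), Olfr33 (0.17), Olfr1076 (0.16), Cnppd1 (0.17), Slc17a6 (0.24) and Stmn4 (0.39). Adcy3 and Cnga4 each passed in 2 of the 8 fits with 1 array left out and Camk2d in 2. No paired analysis was possible because the replicate numbers follow accession order and the labels do not say which mice shared a litter. The title letter, which holds mice of both groups, was used as a block instead, with the counts above.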
